A study of Mus musculus with 6 samples.

Results

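The metabotropic glutamate receptors described here are the products of 6 genes, Grm2, Grm3, Grm4, Grm5, Grm7 and Grm8, which were chosen by name among the 32285 genes of a single-nucleus RNA-sequencing (snRNA-seq) count matrix of mouse forebrain. All 6 were found by symbol, each as 1 row. The study addressed which cells of the forebrain are affected early by loss of NPC1, the cholesterol transporter that is defective in Niemann–Pick C disease. Nuclei were isolated from frozen forebrains of 6 mice at postnatal day 16, of which 3 were WT and 3 Npc1-/-. Both genotypes were littermate F1 hybrids of BALB/cJ and C57BL6/J Npc1+/- parents, and the mutants are homozygous for the Npc1nih null allele, which every cell of the body carries. The matrix joined 6 libraries and named them by a suffix from 1 to 6, without a key from suffix to mouse in the sources used here. WT and Npc1-/- were therefore not compared, and the libraries are given singly or as lowest, median and highest value.

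Metabotropic glutamate receptors are G protein-coupled receptors that sense glutamate and act more slowly than the ionotropic receptors, which are channels. Grm5 encodes a group I receptor, which couples to Gq and phospholipase C and sits mostly on the postsynaptic side. Grm2 and Grm3 encode the group II receptors, and Grm4, Grm7 and Grm8 encode group III receptors. Groups II and III couple to Gi/o proteins and lower cAMP, and group III receptors act mostly on presynaptic terminals, where they restrain transmitter release. Grm3 is also known as a receptor of astrocytes, and Grm5 is known for strong expression in the spiny projection neurons of the striatum.

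The 6 libraries held 8217 to 16118 barcodes and 51343653 to 107583300 unique molecular identifiers (UMIs), with 75878 barcodes and 497750379 UMIs in all. Of the distinct barcode sequences, 631 occurred in more than 1 library, with 20 to 75 shared by any pair of libraries. Npc1 itself was counted in every library, from 25.5 to 32.2 counts per 1000000 UMIs (CPM, median 29.6), which checked no label because the mouse of each library was not given. Nuclei were assigned to cell types by gates, that is, by UMIs of fixed marker genes, and no receptor gene was a marker. Of 75867 nuclei, 33768 (44.5%) were placed in a gate, 10832 (14.3%) carried markers of more than 1 cell type and were left out, and 31267 passed none. Nuclei that passed only the GABAergic and neuroblast lists were kept as neuroblasts. There were 21 named gates and 2 residual groups, cortical nuclei with no layer and GABAergic nuclei with no subtype. In each of the 21 named gates at least 83 nuclei were found, and this lowest number was the dentate gate. Nuclei entered a gate by UMIs of its own list, so a high sum of that list there was largely fixed in advance. Each marker list had its highest summed level in its own gate with 1 exception. The Lhx6 list summed to 1796 CPM in the immature oligodendrocyte gate and 1300.3 CPM in its own, because Sox6 stood at 1671 and 930.5 CPM in them, while Lhx6 itself stood at 3.39 and 74.8 CPM. Sums can rest on few markers. Of the single markers, 2 of 4 thalamic, 2 of 5 upper-layer, 2 of 4 Rorb, 2 of 4 Lhx6, and 3 of 5 each of the layer 5, layer 6 and Adarb2 lists were highest in their own gate, and the thalamic list summed to 1358 CPM in its own gate and 1079 CPM in immature oligodendrocytes. The dentate gate had little C1ql2 (12.7 CPM) beside 427 CPM of Prox1, so it rests mainly on Prox1, Dsp, Glis3 and Stxbp6.

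In coordinates of mouse build GRCm38 (GENCODE M21), Grm3 lies on chromosome 5 at 9485541 to 9725170 on the minus strand, Grm8 on chromosome 6 at 27275119 to 28135178 on the minus strand, and Grm7 on chromosome 6 at 110645581 to 111567230 on the plus strand. Grm5 lies on chromosome 7 at 87584168 to 88134907 on the plus strand, Grm2 on chromosome 9 at 106643095 to 106656082 on the minus strand, and Grm4 on chromosome 17 at 27422387 to 27521403 on the minus strand. The genes differ widely in span, from 12.99 kb for Grm2 and 99.0 kb for Grm4 to 239.6 kb for Grm3, 550.7 kb for Grm5, 860.1 kb for Grm8 and 921.6 kb for Grm7. Exons cover 37.7% of the span of Grm2 and 0.639% of that of Grm7. Counts of nuclear RNA can include intronic reads and differ in length and priming between genes, so levels were compared between gates within a gene and never between genes. No protein-coding gene overlapped a member on its own strand, and no stretch of 50 bases was shared between transcripts of any 2 members.

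A non-neuronal level served as the reference for every receptor, because neuronal RNA was counted in every gate. Syt1, a synaptic vesicle protein gene of neurons, stood at 2163 to 4408 CPM in the named neuronal gates, where the neuroblast gate is included, and at 1071 to 2102 CPM in the 10 non-neuronal gates. In endothelial nuclei, which do not make Syt1, it stood at 1583 CPM. In each of the 10 non-neuronal gates the Syt1 level was highest in library 4 (in the astrocyte gate 1604 CPM against a median of 984 CPM). Levels in non-neuronal gates are therefore given beside those of the endothelial gate, and again per 1000 UMIs of Syt1 in the same gate, a scale chosen after the levels had been seen. Snap25 and Rbfox3, other neuronal genes, served as further references, and the text says where the order of gates changed with them. Fewer transcripts per nucleus and admixture of RNA from other cells cannot be told apart in a gate sum. The endothelial level is no measured floor for neuronal gates, where admixed RNA may make up another share of the UMIs. Aqp4, an astrocyte gene, stood at 9.41 to 26.9 CPM in the named neuronal gates and at 50.9 CPM in the endothelial gate. A neuronal level at or below the endothelial one is therefore not shown to be background. All intervals are at 95% and, unless said to come from the test over libraries, cover counting error only.

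**Figure D1:**
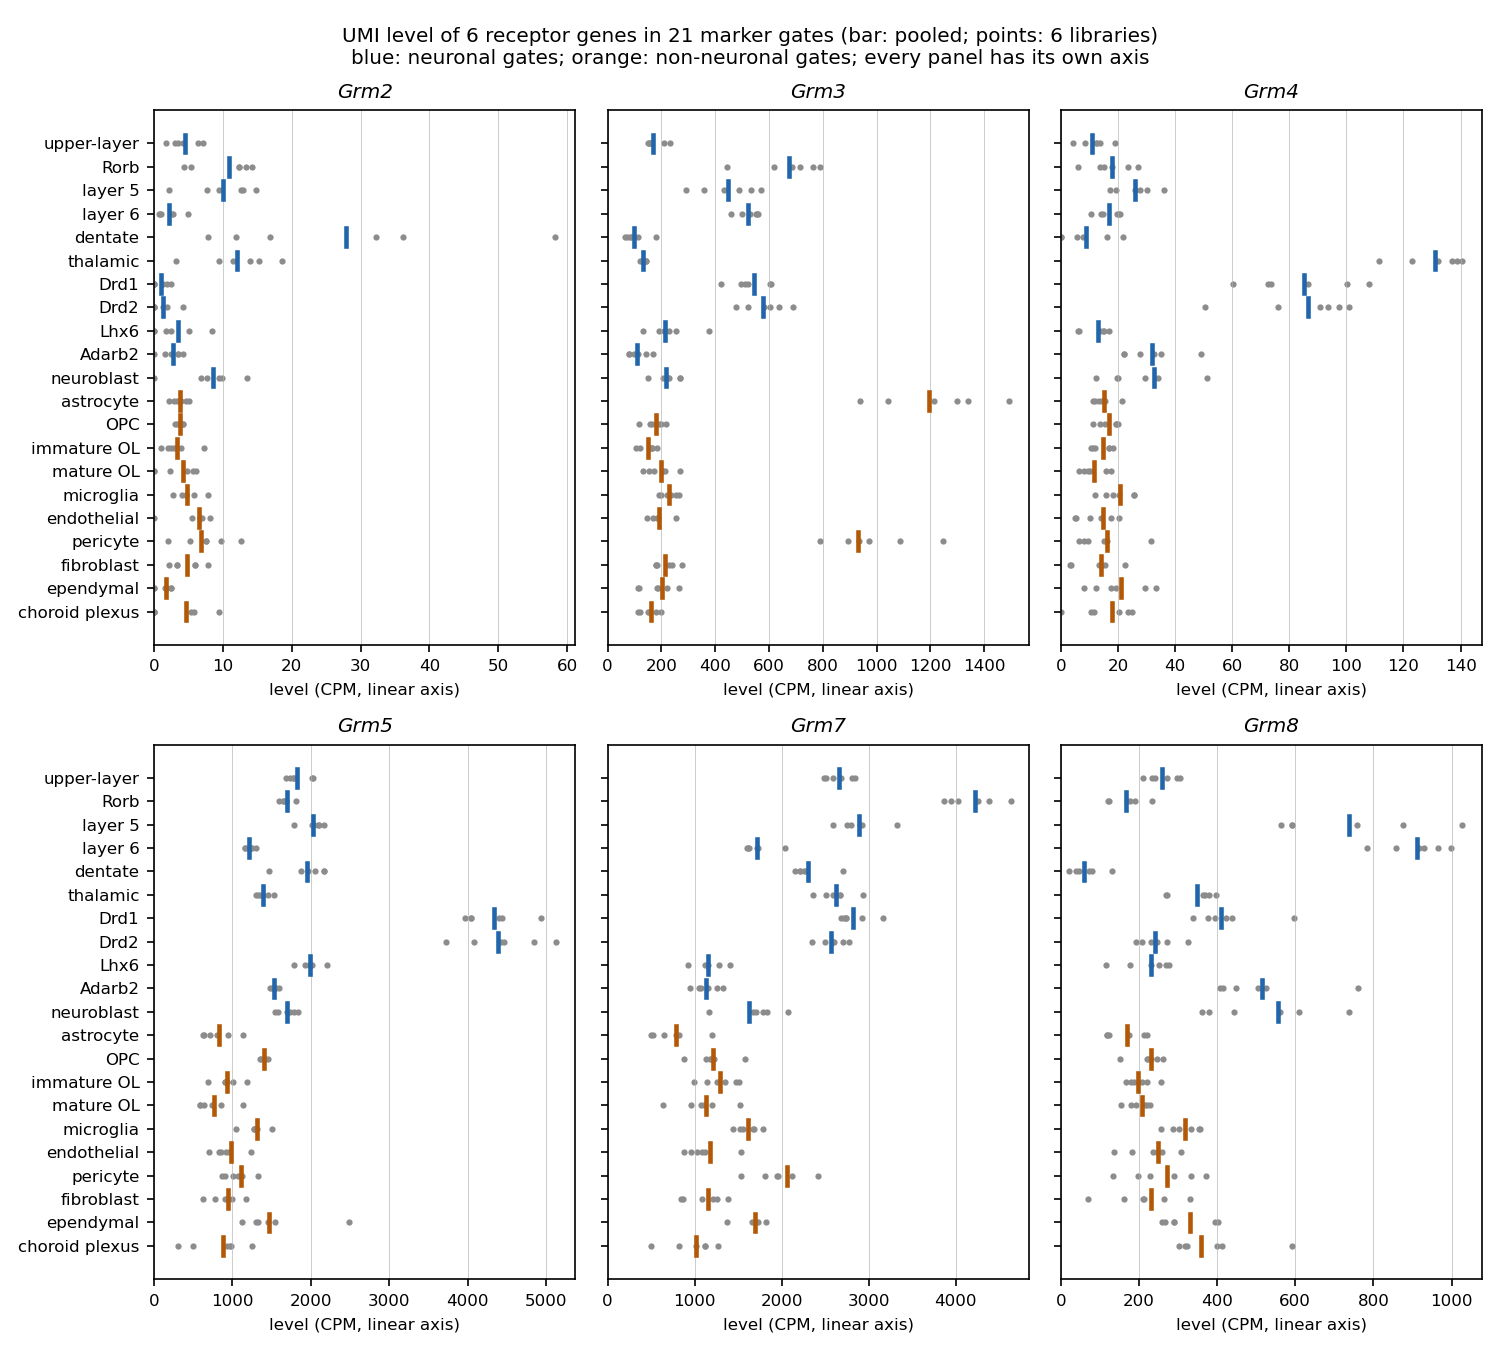
Level of each receptor gene in CPM (linear x axis, 1 scale per panel) in the 21 named gates. Bars are pooled levels, blue in neuronal and orange in non-neuronal gates, and grey points are the 6 libraries. Grm5 stands highest in the Drd1 and Drd2 gates, Grm3 in the astrocyte gate at 1195 CPM and the pericyte gate at 931 CPM, Grm4 in the thalamic gate at 131 CPM, Grm7 in the Rorb gate at 4225 CPM and Grm8 in the layer 6 gate at 912 CPM.

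Grm5, the group I member, was highest in the gates of striatal spiny projection neurons. It stood at 4390 CPM (95% interval 4333 to 4447) in the Drd2 gate, whose neurons project along the indirect pathway, and at 4335 CPM (4259 to 4412) in the Drd1 gate, whose neurons project along the direct pathway. Over the libraries, the Drd2 level had a lowest value of 3729, a median of 4441 and a highest value of 5128 CPM, and the Drd1 level had 3969, 4217 and 4936 CPM. Both striatal gates lay above the highest library of every other named gate, and their intervals overlapped each other. The next levels were 2024 CPM in the layer 5 gate, 1995 CPM in the Lhx6 gate of interneurons, and 1956 CPM in the dentate gate, whose intervals overlapped between neighbours in that order. The upper-layer gate had 1823 CPM, the neuroblast and Rorb gates 1689 CPM each, the Adarb2 gate of interneurons 1530 CPM and the thalamic gate 1390 CPM. Layer 6 had the lowest neuronal level, 1216 CPM, and 3 of the 10 non-neuronal gates stood above it.

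Among non-neuronal gates Grm5 was at 1404 CPM (1383 to 1426) in oligodendrocyte precursor cells (OPCs), 934 CPM in immature and 768 CPM in mature oligodendrocytes, 833 CPM in astrocytes, 1313 CPM in microglia and 978 CPM in endothelial nuclei. The ependymal gate had the highest non-neuronal level, 1464 CPM, 1.498 times the endothelial level and above it in 6 of 6 libraries, with library 6 at 2490 CPM and the next library at 1543 CPM. Pericytes had 1108 CPM, fibroblasts 941 CPM and the choroid plexus gate 880 CPM. The OPC libraries lay close together, from 1349 over a median of 1415 to 1456 CPM, and the endothelial libraries ranged from 705 to 1233 CPM. The OPC level was thus above the endothelial level in 6 of 6 libraries, by 1.44-fold. Per 1000 Syt1 UMIs, 8 of the 10 non-neuronal gates, the ependymal gate among them, had 575 to 730 Grm5 UMIs, the astrocyte gate had 778 (764 to 792) and the OPC gate 1009 (987 to 1031). That the OPC gate stood clear of all others depended on the reference. Per 1000 Snap25 UMIs it had 2432, close to the ependymal gate with 2381, and astrocytes (1890) lay below immature oligodendrocytes (2046) and microglia (2025). Per 1000 Rbfox3 UMIs, OPCs had 7316, astrocytes 6068 and the other 8 gates at most 5276. Per Syt1 UMI the OPC gate was 1.63 times the endothelial gate, and 1.24 to 2.28 times in the single libraries. The astrocyte gate was 1.26 times the endothelial gate on the Syt1 scale, in 6 of 6 libraries, but on the CPM scale it was below it in 5 of 6. Microglia did not stand apart on the Syt1 scale, with 1.01 times the endothelial value and 2 of 6 libraries above it. OPCs exceeded immature oligodendrocytes 1.504-fold in CPM and 1.38-fold per Syt1 UMI, both in 6 of 6 libraries.

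Grm3, a group II receptor, was highest in astrocytes at 1195 CPM (1181 to 1208). Its libraries ranged from 939 over a median of 1256 to 1494 CPM, and the lowest astrocyte library lay above the highest library of every neuronal gate. The level was 6.29 times that of endothelial nuclei (189.9 CPM) and 6.63 times that of OPCs (180.3 CPM), in 6 of 6 libraries each. The lowest astrocyte value came from library 4 and the highest from library 5, the libraries with the highest and the lowest Syt1 level in that gate (1604 and 680 CPM). Whether admixed neuronal RNA contributed to this spread was not tested.

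The next highest Grm3 level was that of pericytes, the mural cells of capillaries, at 931 CPM (894 to 970.1). Its libraries ranged from 791 over 953 to 1246 CPM, all above the endothelial range of 146 to 254 CPM. The pooled ratio to endothelial nuclei was 4.90. Aqp4, a water channel gene that marks astrocytes, stood at 56.9 CPM in the pericyte gate, 50.9 CPM in the endothelial gate and 241 CPM in the astrocyte gate. Per 1000 Syt1 UMIs, Grm3 had 1115 UMIs in astrocytes and 525 in pericytes, while the other 8 non-neuronal gates lay between 96.9 and 149.7. The same 2 gates were highest per 1000 Snap25 UMIs (2709 and 1431, the others at most 422) and per 1000 Rbfox3 UMIs (8698 and 3640, the others at most 1093). Astrocytes exceeded pericytes 2.12-fold per Syt1 UMI, in 6 of 6 libraries.

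Neuronal Grm3 differed by layer and region. It stood at 675 CPM (651 to 699) in the Rorb gate, 523 CPM in layer 6, 446 CPM in layer 5 and 170.3 CPM in the upper-layer gate. The upper-layer level was below the Rorb level 3.96-fold and in 6 of 6 libraries, and it was not above the endothelial level. The Drd2 and Drd1 gates had 576 and 546 CPM, with overlapping intervals. Low levels were found in the Lhx6 gate (215 CPM), the thalamic gate (132 CPM), the Adarb2 gate (108.7 CPM) and the dentate gate (100.2 CPM, 79.3 to 124.8). The last 3 intervals lay below that of the endothelial gate (181 to 199 CPM), and the Lhx6 interval above it.

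Grm2, the other group II receptor and a presynaptic autoreceptor, was the most thinly counted member, with 2524 UMIs in the whole matrix and a level of 5.07 CPM. Its highest level was in the dentate gate, 27.9 CPM (17.5 to 42.2) from 22 UMIs in 83 nuclei. The dentate libraries ranged from 7.89 over 24.6 to 58.2 CPM. The thalamic gate had 12.1 CPM (9.68 to 14.8) from 89 UMIs, the Rorb gate 10.9 CPM and the layer 5 gate 10.1 CPM, with overlapping intervals. The Drd1 and Drd2 gates had 1.05 and 1.34 CPM, from 3 and 7 UMIs. The upper-layer, layer 6, Lhx6 and Adarb2 gates stood at 2.11 to 4.46 CPM and none of them lay above the endothelial level of 6.56 CPM (5.08 to 8.35). Of the neighbouring gates in the order of Grm2 levels, 19 of 20 pairs had overlapping intervals, so that most of this order was not resolved at this depth.

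Grm7, a group III receptor of presynaptic active zones, was counted most often in the Rorb gate. It stood there at 4225 CPM (4166 to 4284), with libraries from 3860 over 4139 to 4628 CPM, above the highest library of every other named gate. The layer 5 gate had 2891 CPM, Drd1 2819 CPM, the upper-layer gate 2653 CPM, the thalamic gate 2625 CPM and Drd2 2568 CPM, with overlapping intervals between layer 5 and Drd1 and among the last 3 gates. The dentate gate followed with 2307 CPM and layer 6 with 1714 CPM. Both interneuron gates were lowest among neurons, with 1159 CPM in Lhx6 and 1128 CPM in Adarb2, and these lay within the range of the endothelial libraries (877 to 1531 CPM). Upper-layer neurons exceeded the Lhx6 gate 2.29-fold and the Adarb2 gate 2.35-fold, each in 6 of 6 libraries.

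In non-neuronal gates, Grm7 was highest in pericytes at 2065 CPM (2009 to 2122), which was 1.75 times the endothelial level of 1177 CPM and higher in 6 of 6 libraries. The ependymal gate had 1688 CPM and microglia 1614 CPM, both above the endothelial level in 6 of 6 libraries, and immature oligodendrocytes had 1293 CPM, 1.10 times the endothelial level and above it in 4 of 6. Per 1000 Syt1 UMIs, pericytes had 1165 (1119 to 1213) and immature oligodendrocytes 1012, and the other 8 gates had 667 to 867. The pericyte value per Syt1 UMI was 1.57 times the endothelial value and 1.46 to 1.83 times in the single libraries. On the same scale immature oligodendrocytes were 1.36 times the endothelial value, with 5 of 6 libraries above it and a range from 0.845 to 2.08 times. Pericytes were also highest, and immature oligodendrocytes next, per 1000 Snap25 UMIs (3171 and 2834, with the ependymal gate at 2745) and per 1000 Rbfox3 UMIs (8069 and 7308). Astrocytes had the lowest Grm7 level of the 21 gates, 783 CPM, and their value per Syt1 UMI was 0.984 times the endothelial one.

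Grm8, another group III receptor, was highest in deep cortical layers. It stood at 912 CPM (890.1 to 935) in layer 6 and at 737 CPM (707 to 768) in layer 5. The layer 6 libraries ranged from 783 over 923 to 998 CPM, and the layer 5 libraries from 563 over 675 to 1028 CPM, so that the ranges overlapped, with layer 5 the lower in 5 of 6 libraries. The upper-layer gate had 258 CPM and the Rorb gate 166.6 CPM (155 to 179), which was below layer 5 4.42-fold and layer 6 5.48-fold in 6 of 6 libraries. The neuroblast gate had 557 CPM and the Adarb2 gate 514 CPM, with the neuroblast gate higher in 3 of 6 libraries. Library 3 was highest in the neuroblast gate (737 CPM, the next 609 and the lowest 362 CPM) and held 364 of its 1235 nuclei. Gad2, a GABAergic marker that the neuroblast gate did not ask for, stood at 190 CPM there and at 555 CPM in the Adarb2 gate. The nuclei of the neuroblast gate need therefore not all be GABAergic. Drd1 had 411 CPM, the thalamic gate 347 CPM, Drd2 239.5 CPM and Lhx6 231 CPM. The dentate gate had the lowest level, 59.6 CPM (43.8 to 79.2) from 47 UMIs. The endothelial level was 247 CPM (238 to 257), and the upper-layer, Drd2 and Lhx6 intervals overlapped it, while those of the Rorb and dentate gates lay below it.

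Outside neurons, 9 of the 10 gates had 150.1 to 165.1 Grm8 UMIs per 1000 Syt1 UMIs, while their CPM levels differed from 169.9 in astrocytes to 332 in ependymal nuclei. The same 9 gates spread more widely with the other references, from 385 in astrocytes to 539 in ependymal nuclei per 1000 Snap25 UMIs and from 1002 to 1237 per 1000 Rbfox3 UMIs. The choroid plexus gate was highest with each reference, at 234 (209 to 262) per 1000 Syt1, 666 per 1000 Snap25 and 2005 per 1000 Rbfox3 UMIs. Per Syt1 UMI it had 1.498 times the endothelial value. Its libraries ranged from 1.05 to 3.85 times, with 6 of 6 above, and the gate held 18 to 72 nuclei per library.

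Grm4, the remaining group III receptor, was highest in the thalamic gate at 131 CPM (123 to 139.7). The 6 thalamic libraries lay between 112 and 140.5 CPM with a median of 134.6 CPM, above the highest library of every other gate. Drd2 followed with 86.5 CPM (78.7 to 94.9) and Drd1 with 85.0 CPM (74.7 to 96.4), whose intervals overlapped. GABAergic nuclei with no subtype had 63.9 CPM. The neuroblast gate had 32.7 CPM, Adarb2 31.9 CPM and layer 5 25.9 CPM, and the remaining named gates had 8.87 to 21.2 CPM. The endothelial level was 14.6 CPM (12.4 to 17.2), and the upper-layer, Rorb, layer 6, dentate and Lhx6 intervals all overlapped it. Per 1000 Syt1 UMIs the 10 non-neuronal gates had 8.86 to 14.1 Grm4 UMIs, with astrocytes highest, whereas per 1000 Snap25 UMIs the ependymal gate (34.5) and astrocytes (34.1) were level.

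**Figure D2:**
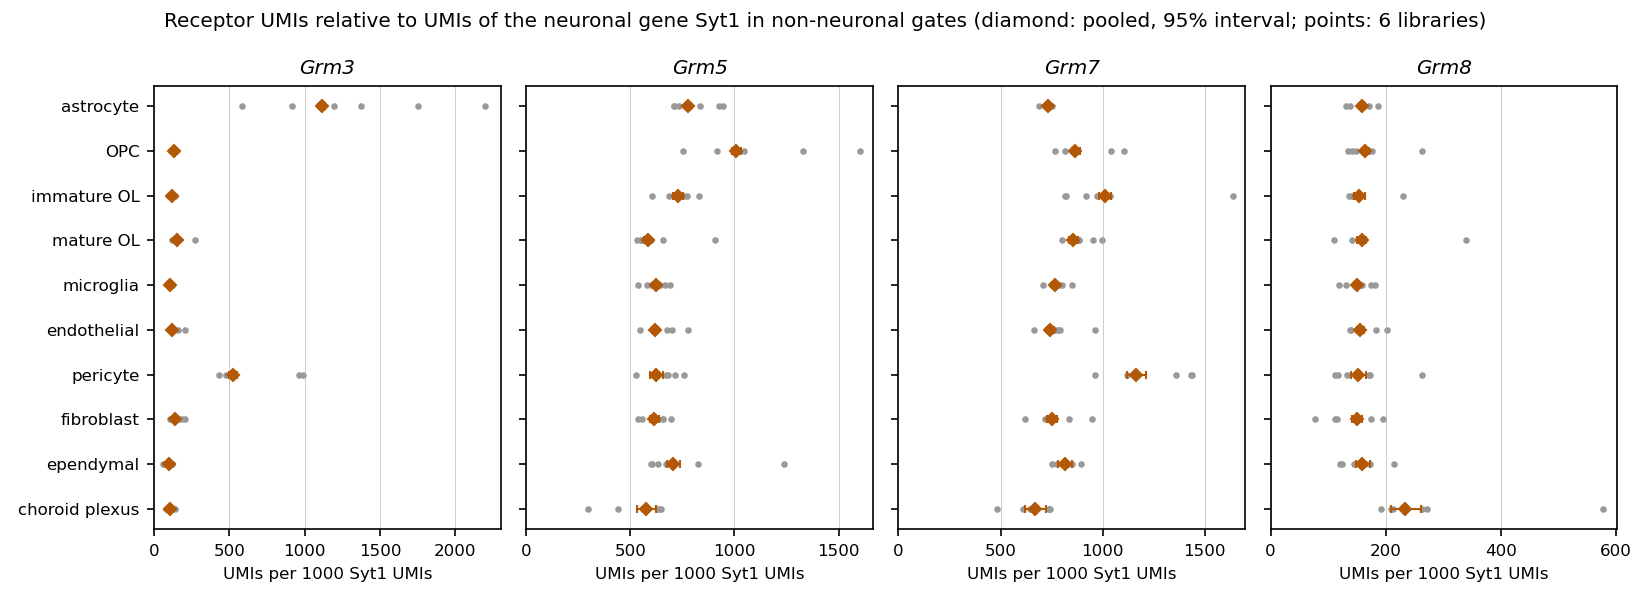
Grm3, Grm5, Grm7 and Grm8 UMIs per 1000 Syt1 UMIs (linear x axes) in the 10 non-neuronal gates. Diamonds are pooled values with 95% counting intervals and grey points the 6 libraries. On this scale the highest values are those of astrocytes (1115) and pericytes (525) for Grm3, OPCs (1009) for Grm5 and pericytes (1165) for Grm7, and 9 gates lie between 150.1 and 165.1 for Grm8. With Snap25 as the reference, OPCs (2432) and ependymal nuclei (2381) lie close together for Grm5, and the 9 gates spread from 385 to 539 for Grm8.

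The 7 contrasts between gates were then read with a fixed call rule, a difference of at least 2-fold with an interval that excludes equality, at least 20 UMIs over both gates and the same direction in 6 of 6 libraries. The rule carries no p-value. Each contrast lies within every library, so it was also tested over the 6 libraries with edgeR's quasi-likelihood test and the library as a block, with p-values adjusted over all genes tested (Benjamini-Hochberg). This test was added after the calls had been seen. It took each library as 1 mouse, and mice of both genotypes entered it unmarked. The test draws each gene's spread between libraries towards that of all genes. With 6 libraries, very small p-values rest largely on that shared spread and on counts, and do not measure the spread of the single gene. With the 2-fold limit kept and an adjusted p under 0.05 in place of the counting interval and the direction in 6 libraries, 13 of the 13 receptor calls stood. These calls had been picked from the same counts by size and by direction in every library. That they stood was therefore largely fixed in advance and gives them no independent support. Of the genes tested, 18.4% were called higher and 9.56% lower in astrocytes than in all neuron gates together, and 5 of the 6 receptors were called. In this contrast the neuron gates include both residual groups and leave out the neuroblast gate. Grm3 was 3.15-fold higher (log2 1.65, 1.63 to 1.68). Grm4 (log2 -1.55), Grm5 (-1.51), Grm7 (-1.70) and Grm8 (-1.30) were lower, and Grm2 was not called at 3.80 against 4.83 CPM. In edgeR's test over libraries, which 66.1% of genes passed in either direction, the adjusted p of the 5 called receptors was 1.23e-09 for Grm3 and at most 4.58e-07, and that of Grm2 was 0.0556. The median log2 ratio was -1.41 over the members and 0.31 over all genes tested. Scaling by the trimmed mean of M-values (TMM) moved all log2 ratios of this contrast by -0.27 and the share of higher calls among all called genes from 65.8% to 48.2%, and the 5 receptor calls stood with the same signs.

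Between OPCs and mature oligodendrocytes, where 12.2% of genes were called in either direction, 0 of 6 receptors were called. Grm5 was nearest to the limit, at 1404 against 768 CPM (log2 0.87, 0.83 to 0.91), higher in 6 of 6 libraries with single log2 ratios from 0.37 to 1.28. Over libraries its edgeR adjusted p was 5.25e-08 (log2 0.93, 0.69 to 1.17), where 30.0% of genes passed. It was called when the 10% of barcodes with most UMIs were left out (log2 1.00) and missed the limit per Syt1 UMI (0.79). The mature gate held 61 to 697 nuclei per library, so some libraries weigh far more than others in its sum, while the OPC gate held 262 to 559. The paper reports fewer immature and mature oligodendrocytes in Npc1-/- forebrains. It also reports that genes of synapse formation, ion transport and neurogenesis were upregulated in both of these cell types. The pooled ratio, and the levels of immature oligodendrocytes given above, may therefore mix cell type with genotype. Without a key to the mice the 2 cannot be told apart. Under a 1.5-fold rule, with 11.2% of genes called higher, Grm5 was called. Grm3 (log2 -0.13), Grm4 (0.52), Grm7 (0.10) and Grm8 (0.14) did not go the same way in all libraries. Of these Grm4 had an edgeR adjusted p of 0.0465, and the other 3 had 0.256 to 0.411.

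The striatal gates, with 1.24% of genes called in either direction, also had 0 receptors called, of 5 tested. For Grm5 the log2 ratio of Drd1 to Drd2 was -0.02 (-0.05 to 0.01), for Grm4 -0.03 (-0.26 to 0.20), for Grm3 -0.08 (-0.17 to 0.01) and for Grm7 0.13 (0.09 to 0.17). In edgeR's test over libraries the intervals were wider, -0.15 to 0.07 for Grm5, -0.31 to 0.22 for Grm4, -0.27 to 0.04 for Grm3 and 0.02 to 0.24 for Grm7, and the adjusted p of these 4 was 0.372 to 0.987. Grm8 stood at 411 CPM in Drd1 and 239.5 CPM in Drd2 (log2 0.78, 0.66 to 0.89) and was higher in Drd1 in 6 of 6 libraries, short of 2-fold. The Drd1 gate held 13 to 60 nuclei per library. Its Grm8 level ranged from 337 to 595 CPM, with the second highest library at 438 CPM. The edgeR adjusted p of Grm8 was 3.59e-14 (log2 0.81, 0.63 to 0.99), where 2.84% of genes passed in either direction. With stricter gates its log2 ratio was 1.10 and it was called, as it was under a 1.5-fold rule, with 1.12% of genes called higher.

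Between the interneuron gates Lhx6 and Adarb2, 2.44% of genes were called lower in Lhx6, and 2 of 6 receptors were. Grm8 stood at 231 against 514 CPM (log2 -1.16, -1.27 to -1.04) and Grm4 at 13.1 against 31.9 CPM (log2 -1.28, -1.80 to -0.78). The Grm4 call rests on 46 and 131 UMIs and was lost when nuclei were thinned to 2000 UMIs (log2 -0.79, -1.82 to 0.17). Grm3 stood at 215 against 108.7 CPM, higher in Lhx6 in 6 of 6 libraries and just short of the limit (1.98-fold). Under a 1.5-fold rule, with 4.35% of genes called higher, it was called. It also passed the 2-fold limit with stricter gates (log2 1.51) and without library 1, 3 or 4 (log2 1.00 to 1.10). Over libraries, where 12.3% of genes passed edgeR's test in either direction, the adjusted p was 7.88e-11 for Grm8, 6.23e-05 for Grm4 and 7.47e-08 for Grm3. The edgeR log2 ratio of Grm3 was 1.02 (0.76 to 1.28) on total UMIs and so at the 2-fold limit, which 2.6% of genes passed in that direction, while TMM scaling lowered its ratio under the call rule to 0.93. Grm5 was 1.30-fold higher in Lhx6 in 6 of 6 libraries (edgeR adjusted p = 0.000417), and Grm7 had a log2 ratio of 0.04 (-0.02 to 0.10).

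Between the upper-layer and layer 6 gates, 3.8% of genes were called lower in the upper layers, and 2 of 6 receptors were, Grm8 (log2 -1.82, -1.91 to -1.73) and Grm3 (log2 -1.62, -1.73 to -1.51). Grm7 (log2 0.63) and Grm5 (0.58) were higher in the upper layers in 6 of 6 libraries, by less than 2-fold, and both were called under a 1.5-fold rule, with 6.28% of genes called higher. The receptors thus split by direction within the same pair of gates. Each of these 4 passed edgeR's test over libraries, with adjusted p-values of 7.48e-34 for Grm8, 3.51e-29 for Grm3, 4.44e-16 for Grm7 and 6.39e-14 for Grm5, where 19.5% of genes passed in either direction. Grm4 (adjusted p = 0.109) and Grm2 (0.242) did not.

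In the thalamic gate against all cortical glutamatergic gates, 6.69% of genes were called higher and 5.58% lower, and 2 of 6 receptors were called. These cortical gates include the cortical nuclei with no layer. Grm4 was called higher, 131 against 15.7 CPM (8.38-fold, log2 3.07, 2.93 to 3.20), with single libraries from 2.72 to 3.45. Grm3 was called lower, 132 against 388 CPM (log2 -1.55). Grm2 was at 12.1 against 5.87 CPM (log2 1.04, 0.68 to 1.38) but higher in 5 of 6 libraries only. Library 6 was the lower one, so that leaving it out met the rule on direction by construction (log2 1.11). Grm2 was called after thinning to 2000 UMIs (log2 1.22, 0.30 to 2.05). In edgeR's test over libraries, which 35.6% of genes passed in either direction, the adjusted p was 1.4e-29 for Grm4, 3.4e-23 for Grm3 and 0.000187 for Grm2. The edgeR log2 ratio of Grm2, 1.02 (0.58 to 1.47), on total UMIs, was at the 2-fold limit, which 8.23% of genes passed in that direction, while TMM scaling lowered its ratio under the call rule to 0.87. Grm8 (log2 -0.52, adjusted p = 4.79e-08) and Grm5 (log2 -0.33, adjusted p = 2.6e-06) were lower by less than 2-fold. TMM scaling moved this contrast by -0.17 and the share of higher calls among all called genes from 54.5% to 41.8%.

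In the dentate gate against the same cortical gates, 4.24% of genes were called lower, and 2 of 6 receptors were. Grm8 was called lower, 59.6 against 488 CPM (8.19-fold, log2 -3.03, -3.48 to -2.62), and so was Grm3, 100.2 against 388 CPM (log2 -1.95). Grm2 was 4.75-fold higher (log2 2.25, 1.55 to 2.87) but in 5 of 6 libraries. Library 2 was the lower one, so that leaving it out met the rule on direction by construction (log2 2.55). In edgeR's test over libraries, which 12% of genes passed in either direction, the adjusted p was 4.12e-60 for Grm8, 3.8e-31 for Grm3 and 1.88e-05 for Grm2. Grm2 was past the 2-fold limit there (log2 2.25, 1.35 to 3.15), as were 3.84% of genes in that direction. Grm5 (log2 0.17, edgeR adjusted p = 0.42) and Grm7 (log2 -0.32, adjusted p = 0.00963) differed by less than 2-fold. TMM moved this contrast by -0.19 and the share of higher calls among called genes from 38.3% to 26.2%.

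**Figure D3:**
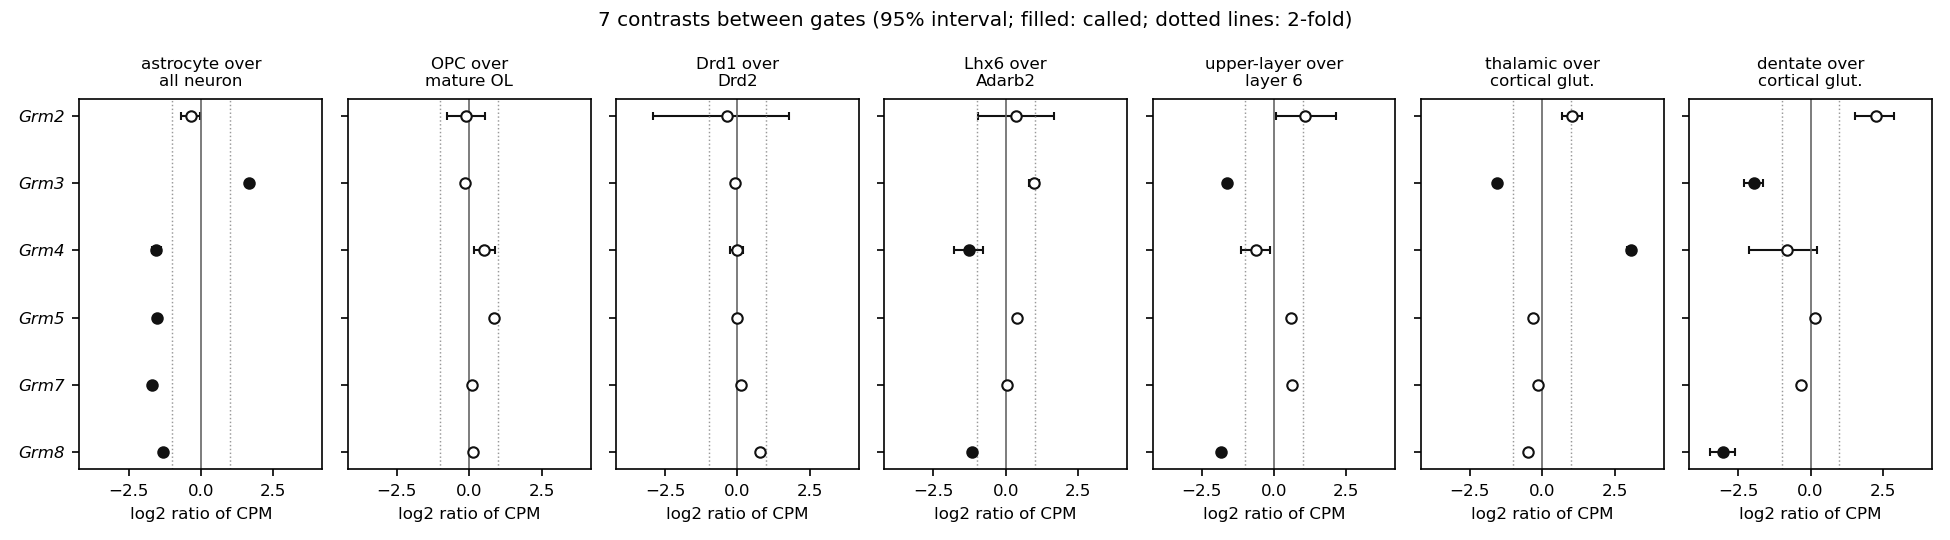
Log2 ratio of CPM of the 6 receptor genes in the 7 contrasts, with 95% counting intervals. Filled points were called, open points were not, and dotted lines mark 2-fold. The largest called ratios are Grm4 in the thalamic gate (log2 3.07) and Grm8 in the dentate gate (log2 -3.03).

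The share of nuclei with at least 1 UMI depends on depth, so each nucleus was also thinned to 2000 UMIs, which left out 3457 gated nuclei of fewer UMIs and kept 30311. After thinning, Grm3 was detected in 74.6% of astrocytes (73.4 to 75.8) and 65.2% of pericytes, beside 25.4% of endothelial nuclei (23.6 to 27.2). Before thinning these shares were 82.6%, 65.3% and 34.8%, with median depths of 3610, 2607 and 2994 UMIs. They were then taken over 5947, 803 and 2727 nuclei, and after thinning over 5415, 572 and 2200. Shares before and after thinning are thus not over the same nuclei. Grm5 was detected in 99.2% of Drd1, 99.0% of Drd2 and 86.9% of OPC nuclei after thinning, beside 73.0% of endothelial and 58.2% of mature oligodendrocyte nuclei. Before thinning the same gates had 100%, 100%, 93.1%, 81.2% and 75.8%, with median depths of 10546, 8396, 3566, 2994 and 3727 UMIs. Grm7 was detected in 99.3% of Rorb nuclei and 100% of the 83 dentate nuclei, but also in 75.0% of endothelial nuclei, and unthinned in 100%, 100% and 81.3% at median depths of 10072, 8570 and 2994 UMIs. A UMI of Grm5 or Grm7 in a nucleus therefore did not mark its cell type.

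Grm8 was detected after thinning in 67.5% of layer 6 and 59.3% of layer 5 nuclei, beside 28.5% of endothelial nuclei, and Grm4 in 19.4% of thalamic nuclei (16.2 to 23.0) beside 2.55% of endothelial nuclei. Unthinned, Grm8 was found in 87.7%, 85.8% and 37.6% of them, at median depths of 9409, 10611 and 2994 UMIs, and Grm4 in 69.6% and 4.22%, at 12591 and 2994 UMIs. Grm2 stayed at or below 3.61% in every gate, and its endothelial share was 1.05%. Unthinned, 22.9% of dentate and 2.35% of endothelial nuclei had a Grm2 UMI.

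**Figure D4:**
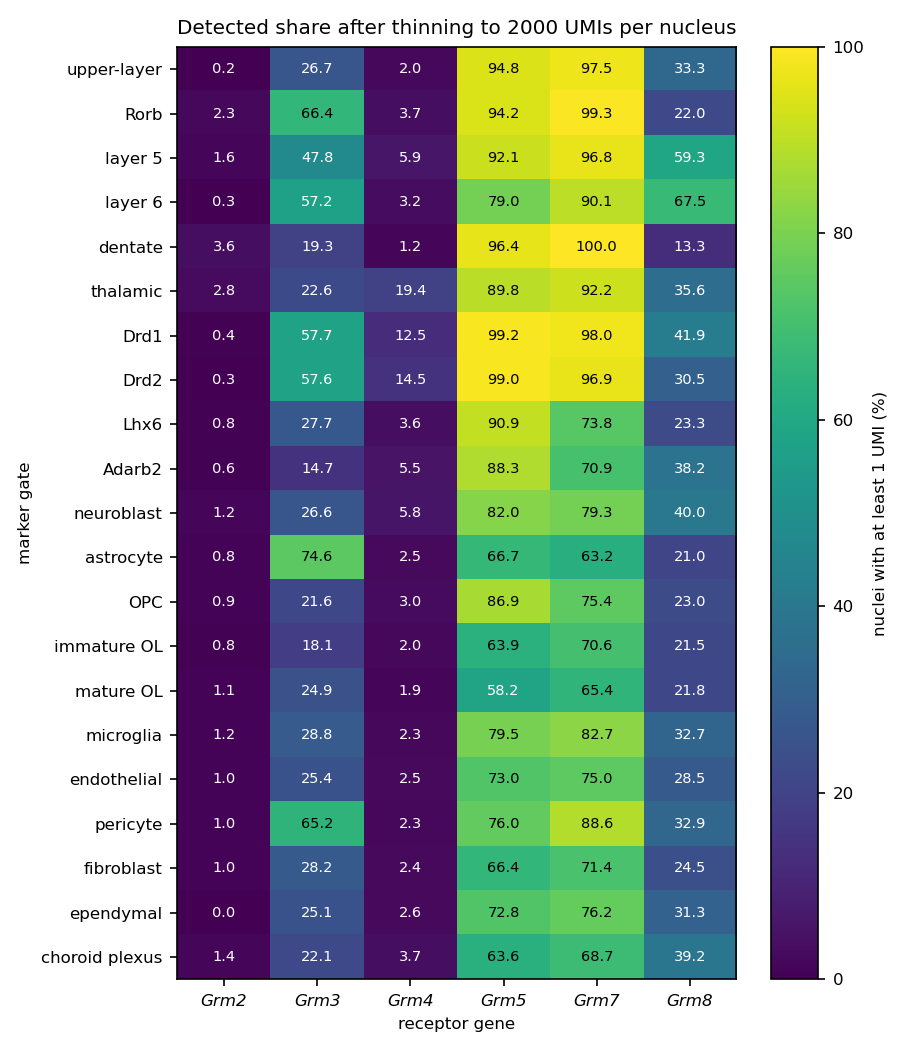
Percent of nuclei with at least 1 UMI of each receptor gene after thinning to 2000 UMIs, by gate (rows) and gene (columns), with the colour scale from 0 to 100%. Grm5 and Grm7 are found in over 58% of nuclei of every gate, while Grm4 reaches 19.4% in the thalamic gate and Grm2 at most 3.61%.

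Genes of the most similar pattern were sought by Pearson's r of log2(CPM + 1) over the 21 gates among 13967 genes that reached 10 CPM in some gate. The gates share libraries and differ in depth, so these values are descriptions. Grm5 was followed most closely by Unc79 (r = 0.93), a subunit of the sodium leak channel complex, Fgf14 (0.92), a partner of voltage-gated sodium channels, and Syt14 (0.91). Grm7 was nearest to Lrrc7 (0.90), a postsynaptic scaffold, Syndig1 (0.89) and Bsn (0.89), which encodes the active zone protein Bassoon. Grm4 was nearest to Tspear (0.88), Gm47515 (0.86) and Rnf207 (0.85), and Grm8 to the cadherin gene Cdh18 (0.82), Gm43507 (0.81) and Gm44644 (0.80). Grm2 was nearest to the neurotrophin gene Bdnf (0.79), Pkib (0.78), an inhibitor of protein kinase A, and Sphkap (0.78). Grm3 had the weakest matches, Spry2 (0.69), an inhibitor of growth factor signalling, the mitochondrial carrier Sfxn5 (0.68) and Gm13872 (0.67), each highest in astrocytes. Among the members themselves, r was highest for Grm5 with Grm7 (0.65) and lowest for Grm2 with Grm8 (-0.39).

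A list of 40 receptor-associated genes held G protein subunits, phospholipases, adenylyl cyclases, kinases, scaffolds and regulators, and was read with the same rule in the same contrasts. Between astrocytes and neurons, 8 of 40 were called higher and 8 lower, beside 18.4% and 9.56% of all genes. Plcb3, a phospholipase C of the Gq pathway (11.6 against 1.64 CPM, log2 2.82), and the scaffold Homer3 (15.5 against 2.56 CPM, log2 2.59), which binds group I receptors, were the highest. Adenylyl cyclase Adcy5 (53.9 against 243.6 CPM, log2 -2.18) and the postsynaptic scaffold Shank2 (99.6 against 291.7 CPM, log2 -1.55) were the lowest. The list's median log2 ratio was -0.25 beside 0.31 over all genes.

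Between OPCs and mature oligodendrocytes, 3 of 40 were called higher and 1 lower, beside 6.72% and 5.5% of all genes. Elfn1, a synaptic adhesion protein that binds group III receptors, stood at 37.2 against 8.47 CPM (log2 2.13), the scaffold Grip1 had a log2 ratio of 1.09, and Homer3 of -1.06. Between Drd1 and Drd2, 0 of 39 tested genes were called, beside 1.24% of all genes. In Lhx6 against Adarb2, 3 of 39 were called, all lower, beside 2.44% of all genes, led by Rgs12 (16.8 against 102.2 CPM, log2 -2.60), a regulator of G protein signalling, and the scaffold Homer2 (log2 -1.76).

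In the upper layers against layer 6, where 3.79% of all genes were called higher and 3.8% lower, 3 of 39 list genes were called higher, led by Rgs12 (log2 1.87) and the protein kinase C gene Prkca (log2 1.52), and 2 lower, Adcy1 (-1.24) and the receptor kinase Grk3 (-1.11). In the thalamic gate, where 6.69% of all genes were called higher and 5.58% lower, 5 of 40 were higher, led by the phospholipase gene Plcb4 (560.3 against 125.7 CPM, log2 2.16) and Homer2 (1.34), and 8 were lower, led by Prkca (-2.06) and the scaffold Grasp (-1.97). In the dentate gate, where 2.63% of all genes were called higher and 4.24% lower, 3 of 40 were higher, led by Ncdn (log2 1.51), which encodes the mGluR5-binding protein norbin, and the potassium channel gene Kcnj6 (1.13), and 6 were lower, led by Plcb4 (-2.11) and Prkcb (-1.71). Plcb4 thus had opposite signs in the thalamic and dentate gates, which were set against the same cortical gates. Of the 50 calls of list genes in the 7 contrasts, 49 stood in edgeR's test over libraries, and that of Elfn2 in the dentate gate did not (log2 -1.02, adjusted p = 0.224). These calls too had been picked from the same counts, so this is no independent support.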

How the data were processed

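Nuclei of 3 WT and 3 Npc1-/- forebrains (postnatal day 16) were sequenced in droplets. The authors deposited 1 matrix of raw UMI counts (genes by barcodes, whole numbers, not normalized). Its header names Cell Ranger 6.0.0, the submitters' processing notes name Cell Ranger 2.1.1 and mm10, and the paper's methods describe another alignment, and no source used here says whether intronic reads were counted. The authors' imputed values were not used.

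The 11 barcodes with at least 10% mitochondrial UMIs were left out. A nucleus passed a gate with at least 2 marker genes of a list, 3 times the list's background share and a Poisson p under 0.01. Layer and subtype gates asked for 2 times. Gate thresholds, and the dentate gate as a whole, were set after marker values, but no receptor values, had been seen. Nuclei passing more than 1 cell type gate were left out as the treatment of doublets, and no doublet caller was run. Those passing only the GABAergic and neuroblast gates were an exception and were kept as neuroblasts. Doublets of these types were therefore not removed from the neuroblast gate. Nuclei passing more than 1 layer list were kept as cortical nuclei with no layer. UMIs were summed per gate and divided by the gate's UMIs (CPM). Sums carry exact Poisson intervals, shares exact Clopper-Pearson intervals, and ratios exact intervals from the binomial distribution of 2 counts, all at 95% and for counting error only. Genotypes were not compared, because no key ties libraries to mice. The 7 contrasts between gates were also tested over the 6 libraries with edgeR 4.0.16 (glmQLFit and glmQLFTest on UMI sums per gate and library, library as a block, total UMIs as library sizes, genes with at least 20 UMIs, Benjamini-Hochberg adjustment), added after the data had been seen. Gates of 1 library are paired because they come from the same library.

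Named were the 6 members, the 3 genes of highest r for each (markers and members left out), and in each contrast the 2 called genes of the receptor-associated list with the largest ratio in each direction. Of the names in that list, 3 were older or alternate symbols without a row. The members and lists were chosen with earlier results of these data known, and ratios between gates outside the 7 contrasts were chosen after levels had been seen. The range of total counts over the libraries is in the report. Alternatives were stricter gates, the top 10% of UMIs left out, thinning to 2000 UMIs, TMM factors (edgeR 4.0.16), no mitochondrial filter, a 1.5-fold rule, no UMI minimum and each library left out. Python 3.11.15 with numpy 2.4.6, scipy 1.17.1 and pandas 2.3.3 was used.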

Additional observations from a re-analysis of the deposited data

Results flagged for a closer look

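Of 83 levels (a receptor gene in a gate, with at least 20 UMIs in every library), 7 had 1 library far from the other 5, by Dixon's criterion for 6 values. Chance alone flags about 1 in 20 such levels, and this criterion looked at both ends of each. Grm7 accounts for 4 of the 7. In the layer 6 gate it stood at 2042 CPM in library 5, with the next library at 1724 CPM. In the dentate gate it stood at 2708 CPM in library 6, with the next at 2275 CPM. In the endothelial gate library 4 stood at 1531 CPM, with the next at 1117 CPM, and library 4 also had the highest Syt1 level in that gate (2031 CPM). In the ependymal gate library 5 was lowest at 1373 CPM, with the next at 1656 CPM. Grm5 in the ependymal gate stood at 2490 CPM in library 6, with the next at 1543 CPM. Grm8 in the Adarb2 gate stood at 762 CPM in library 3, with the next at 525 CPM, and in the OPC gate at 151.2 CPM in library 6, the lowest, with the next at 221 CPM. The causes were not tested, and without a key to the mice none of these libraries can be tied to a genotype.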

How the results depend on the processing

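The 7 contrasts were recomputed under 8 kinds of alternative. Of 6 receptors, 5, 0, 0, 2, 2, 2 and 2 were called in the astrocyte, OPC, Drd1, Lhx6, upper-layer, thalamic and dentate contrasts. With 1 library left out, the counts stayed at 5, 0, 0 and 2 in the astrocyte, OPC, Drd1 and upper-layer contrasts and ranged from 2 to 3 in the Lhx6, thalamic and dentate contrasts. The OPC count was 1 without the barcodes of most UMIs and 1 under the 1.5-fold rule. The Drd1 count was 1 with stricter gates and 1 under the 1.5-fold rule. After thinning the Lhx6 count was 1 and the thalamic count 3, with Grm2 gained. The upper-layer count was 4 under the 1.5-fold rule. No share of all genes called is given in the report for stricter gates, thinning, the barcodes of most UMIs or a library left out. Gains and losses under these settings therefore cannot be set against the rate over all genes. Beyond the receptors named in the report, Grm4 was called in the dentate contrast without library 1, the library of the other direction (log2 -1.40, from 7 UMIs in all libraries). No call changed with TMM scaling, without the mitochondrial filter or without the minimum of 20 UMIs, and no called receptor changed its sign under any of these alternatives. The largest shift was that of Grm2 in the upper-layer contrast after thinning (log2 -0.39 in place of 1.08, called in neither). The scale per Syt1 UMI, added after the data had been seen, left the OPC count at 0. With edgeR's test and the library as a replicate block, also added later, the counts were 5, 0, 0, 3, 2, 3 and 3, and 13 of 13 calls stood. The 13 had been picked from the same counts, so their standing was largely fixed in advance. Grm3 in the Lhx6 contrast and Grm2 in the thalamic and dentate contrasts were gained, the first 2 at log2 1.02 each, and these are 0.93 and 0.87 with TMM scaling of the call rule. Total UMIs limit the dentate gate most, whose libraries held 9 to 20 nuclei, with 7 UMIs of Grm4, 22 of Grm2, 47 of Grm8 and 79 of Grm3.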

Other observations

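Receptors were also counted together within single nuclei, after thinning to 2000 UMIs and with no test, since nuclei of 1 library share 1 mouse. Of the 248 Drd1 and 573 Drd2 nuclei, 78.2% and 74.9% had UMIs of 3 or more of the 6 receptor genes. The shares were 72.3% in the layer 5 gate, 71.0% in the Rorb gate, 70.9% in layer 6, 53.9% in the thalamic gate, 52.4% in the upper-layer gate, 44.6% in neuroblasts, 37.9% in the Adarb2 gate, 33.9% in the Lhx6 gate and 32.5% in the dentate gate. Non-neuronal gates reached up into this range, with 59.4% of pericytes, 42.3% of astrocytes, 40.8% of microglia and 32.9% of 2200 endothelial nuclei, and the other 6 gates had 23.3% to 33.2%.

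Grm3 and Grm8 were both higher in layer 6 than in the upper layers, and their joint detection is given beside the product of their single shares. In the layer 6 gate 41.0% of 680 nuclei held both, where the product is 38.6%, and Grm8 was found in 71.7% of nuclei with Grm3 and in 61.9% of those without it. In the Rorb gate 15.2% of 428 nuclei held both, where the product is 14.6%. In the upper-layer gate 5.17% of 445 nuclei held both, where the product is 8.89%, and Grm8 was found in 19.3% of nuclei with Grm3 and in 38.3% of those without it. In the layer 5 gate 34.0% of 253 nuclei held both, where the product is 28.4%. In endothelial nuclei the corresponding values were 8.95% and 7.23%. Differences between the gates were not tested.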
